A study of Mus musculus with 8 samples.

Results

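A set of 8 genes of the HOX and TALE homeobox families were followed in whole bone marrow (BM) of mice with little or no Gfi1. They were taken as a list of names, chosen with earlier results of these data known, and they make up 8 of the 41214 genes counted: Hoxa5, Hoxa7, Hoxa9, Hoxa10 and Hoxb4 among the HOX genes, and Meis1, Pbx2 and Pbx3 among the TALE genes. Gfi1 encodes a zinc finger repressor that shapes myeloid differentiation. RNA-seq counts were made for 8 C57Bl6 mice in 4 groups of 2 mice. Gfi1 KD mice carry a human GFI1 cDNA at the Gfi1 locus together with a floxed neomycin cassette in antisense direction, which keeps GFI1 expression low, and Gfi1 KO mice lack Gfi1. Young KD mice (39 and 42 days of age) and young KO mice (48 and 44 days of age) were healthy. The sick KD mice, 187 and 78 days old, carry the label AML, whereas the study describes their disease as a fatal myeloproliferative neoplasm. The old KO mice, 158 and 101 days old, were healthy. All groups carry an altered Gfi1 locus, and no wild-type BM was analysed here. Every difference is therefore between KD and KO mice or between young and older or sick mice within a genotype. Age and disease cannot be told apart in the KD mice. Genotype and disease cannot be told apart between old KO and sick KD mice.

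HOX proteins are transcription factors that bind DNA through a homeodomain, and their genes lie in the clusters Hoxa, Hoxb, Hoxc and Hoxd. In blood, Hoxa9 and its neighbours are active in stem and progenitor cells and fall as myeloid cells mature. MEIS and PBX proteins belong to the TALE class of homeodomain proteins and bind DNA together with HOX proteins. Forced expression of Hoxa9 with Meis1 is a classical cause of myeloid leukemia in mice, and GFI1 is known to compete with HOXA9 at shared target genes and to repress Hoxa9 and Meis1 in myeloid progenitors. The core of the GFI1 binding site is AATC, which reads GATT on the other strand.

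The sequence before the transcription start was examined because GFI1 is a DNA-bound repressor. Of the 8 genes, 7 have an entry in the RefSeq promoter set on GRCm38.p6, and Pbx3 does not. Hoxa10 has a pair of starts, which gives 8 promoters. The letters AATC were searched on both strands in the 250 bases before each start. They occur in promoters of 3 of the genes, Hoxa7, Hoxa9 and Hoxa10, and do not occur in these windows of Hoxa5, Hoxb4, Meis1 and Pbx2. With only 4 letters the core is common, and 69.0% of 32851 mouse promoters of this length hold it at least once. The promoters of Hoxa9 and Hoxa10, which lie in the cluster that GFI1 is known for, and of Hoxb4 and Pbx2, the members that passed a test, are given 5′ to 3′ on the strand of the gene with AATC or GATT in capitals. All 4 windows hold no exon base of GENCODE M21, and those of Hoxa9, Hoxa10 and Pbx2 lie within introns of longer transcripts of the same gene.
Hoxa9, minus strand, chr6:52227371-52227620: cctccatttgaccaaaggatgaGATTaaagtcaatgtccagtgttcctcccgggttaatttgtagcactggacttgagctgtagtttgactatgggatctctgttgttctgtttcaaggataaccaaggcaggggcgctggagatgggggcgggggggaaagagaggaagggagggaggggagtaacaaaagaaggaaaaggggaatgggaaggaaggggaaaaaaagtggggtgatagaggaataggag
Hoxa10, minus strand, chr6:52234940-52235189: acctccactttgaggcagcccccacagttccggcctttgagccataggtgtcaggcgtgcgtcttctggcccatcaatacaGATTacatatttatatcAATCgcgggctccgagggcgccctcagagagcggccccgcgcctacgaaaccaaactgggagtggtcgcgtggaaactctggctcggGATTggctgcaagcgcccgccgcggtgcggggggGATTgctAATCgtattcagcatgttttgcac
Hoxb4, plus strand, chr11:96318017-96318266: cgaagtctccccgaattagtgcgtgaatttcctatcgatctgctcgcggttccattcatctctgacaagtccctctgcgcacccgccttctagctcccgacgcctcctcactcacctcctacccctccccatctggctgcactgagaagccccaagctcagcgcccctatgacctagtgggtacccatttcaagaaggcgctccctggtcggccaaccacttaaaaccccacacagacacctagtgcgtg
Pbx2, plus strand, chr17:34592009-34592258: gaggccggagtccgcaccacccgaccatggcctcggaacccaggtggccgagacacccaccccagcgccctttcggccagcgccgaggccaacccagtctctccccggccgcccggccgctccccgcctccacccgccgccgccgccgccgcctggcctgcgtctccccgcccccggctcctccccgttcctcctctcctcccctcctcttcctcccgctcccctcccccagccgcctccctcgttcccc
The Hoxa9 window holds 1 match and this Hoxa10 window holds 5, while the Hoxb4 and Pbx2 windows hold 0. The other Hoxa10 window, chr6:52240855-52241104, lies inside no gene, is not printed here and holds 1. Guanine and cytosine make up 77.6% of the Pbx2 window and 49.6% of the Hoxa9 window. A MEIS motif, TGACAG, occurs in 15.9% of all promoters and a composite PBX with HOX motif, TGATNNAT, in 7.68%, both searched on both strands, and neither occurs in any of the 8 windows. A letter match is not a bound site, and binding was not measured.

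Counts on genes ran from 26642067 to 42679114 per library. Levels are given in CPM, the count of a gene relative to its library total after TMM scaling, in which 1 count corresponded to 0.0227 to 0.0404. Both sick KD libraries stood apart in quality measures: 42.0% and 38.8% of their uniquely aligned reads fell on no annotated gene, against 26.9% to 33.8% in the other 6 libraries, and 1.42% and 1.16% of their counts were mitochondrial, against 0.464% to 0.787%. The part of these differences in the results was not tested. Counts on the mouse Gfi1 gene were higher in the libraries labelled KO (13.3 to 29.7 CPM) than in those labelled KD (5.49 to 7.15 CPM), so they cannot serve as a check of the genotype labels, and each direction between KO and KD rests on those labels.

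Hox transcripts in BM came from a few genes. Of the 39 Hox genes, 29 had at least 1 count and 10 had 0 counts in all 8 mice, which allows up to 0.0682 to 0.121 CPM per library (3 counts, counting error only). The Hoxa cluster held 66.1% of the 9013 counts on Hox genes and the Hoxb cluster 33.4%, while Hoxc held 0.233% and Hoxd 0.311%. The 5 HOX members held 90.2% of all Hox counts, and Hoxa9, Hoxa7 and Hoxb4 together held 86.1%. Cdx1, Cdx2 and Cdx4, which encode caudal factors that act upstream of Hox genes in the embryo, had 0 counts in all mice.

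**Figure D1:**
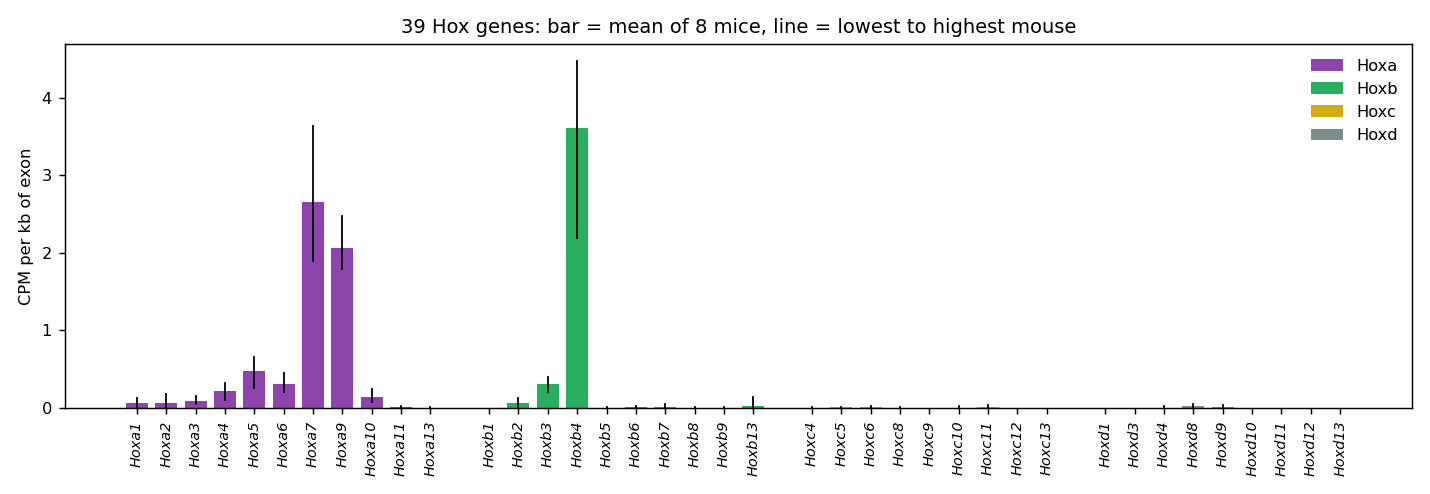
Level of the 39 Hox genes in CPM per kb of exon (linear axis), ordered by cluster and paralog number; bars are means of 8 mice and lines run from the lowest to the highest mouse. Hoxb4 (3.60), Hoxa7 (2.65) and Hoxa9 (2.06) stand above every other Hox gene, and the Hoxc and Hoxd genes lie near 0.

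Levels of different genes were compared in CPM per kb of exon, as means over the 8 mice. Pbx2 was the most abundant member at 13.4 ± 3.14 (SD, n = 8), and its lowest mouse (7.64) lay above the highest mouse of any other member. Hoxb4 followed at 3.60 ± 0.835, Hoxa7 at 2.65 ± 0.592, Meis1 at 2.36 ± 0.265, Pbx3 at 2.21 ± 0.321 and Hoxa9 at 2.06 ± 0.274. The ranges over mice of these 5 genes overlapped between each pair of neighbours in that order. Hoxa5 (0.481 ± 0.142) and Hoxa10 (0.137 ± 0.0618) were the lowest, and their ranges overlapped neither each other nor those of the genes above.

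**Figure D2:**
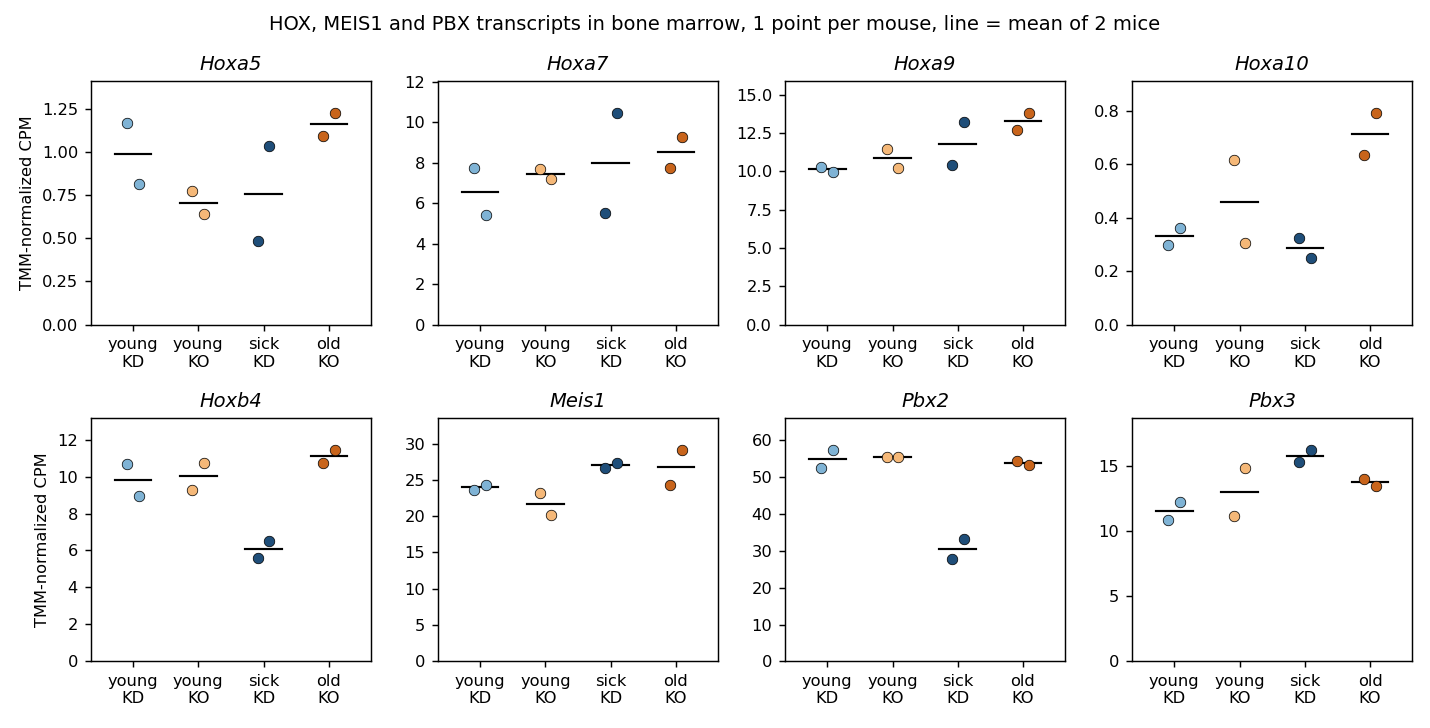
TMM-normalized CPM of the 8 genes, each on its own linear axis from 0; every point is 1 mouse and the line is the mean of the 2 mice of a group. In Pbx2 and Hoxb4 both sick KD mice lie below all 6 other mice, whereas Hoxa9 and Meis1 of sick KD lie within the range of the others and the 2 sick KD mice of Hoxa7 lie far apart.

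Hoxa9 (ENSMUSG00000038227, chromosome 6, 52223100 to 52231089, minus strand) encodes the HOX protein most closely tied to acute myeloid leukemia. Its level was 10.3 and 9.98 CPM in young KD mice, 11.5 and 10.2 CPM in young KO mice, 10.4 and 13.2 CPM in sick KD mice and 12.7 and 13.8 CPM in old KO mice. Both sick KD mice lay within the range of the other 6 mice, and the whole span from the lowest to the highest mouse was 1.38-fold. The edgeR estimate for old KO over sick KD was 0.17 on the log2 scale (95% interval -0.29 to 0.62, adjusted p = 0.566, Benjamini-Hochberg over all tested genes), and that for sick KD over young KD was 0.21 (-0.21 to 0.64, adjusted p = 0.419). A Hoxa9 difference of more than 1.54-fold between old KO and sick KD lies outside the first interval.

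Hoxa7 (ENSMUSG00000038236, chromosome 6, 52214491 to 52221854, minus strand) is a neighbour of Hoxa9 that is active in similar progenitors. It was at 7.71 and 5.43 CPM in young KD, 7.68 and 7.19 CPM in young KO, 5.49 and 10.5 CPM in sick KD and 7.75 and 9.27 CPM in old KO mice. The 2 sick KD mice lay near opposite ends of the range of all 8 mice, so the group mean of 7.97 CPM describes neither of them. The intervals were wide, with a log2 fold change of 0.10 (-0.66 to 0.85, edgeR adjusted p = 0.856, Benjamini-Hochberg) for old KO over sick KD and 0.27 (-0.55 to 1.09, adjusted p = 0.597) for sick KD over young KD. The direction turned when 1 sick KD mouse was left out: without the 187-day mouse the log2 fold change of old KO over sick KD was -0.29, and without the 78-day mouse that of sick KD over young KD was -0.27. Hoxa7 shares 586 exon bases with the antisense transcript Hoxaas3, which had 13 to 37 counts per mouse against 136 to 363 counts on Hoxa7, and whether the counting used the strand is not stated. Hoxaas3 was at 0.767 and 1.32 CPM in the sick KD mice and at 0.332 to 0.705 CPM in the others, a difference that did not pass (edgeR adjusted p = 0.180 against old KO and 0.130 against young KD, Benjamini-Hochberg).

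Hoxa5 (ENSMUSG00000038253, chromosome 6, 52201754 to 52204587, minus strand) and Hoxa10 (ENSMUSG00000000938, chromosome 6, 52231197 to 52240854, minus strand) flank these genes and rested on 12 to 48 and 7 to 31 counts per mouse. Hoxa5 was at 1.17 and 0.814 CPM in young KD, 0.773 and 0.640 CPM in young KO, 0.485 and 1.03 CPM in sick KD and 1.09 and 1.23 CPM in old KO mice. The sick KD mice overlapped with both young groups and lay below both old KO mice. Hoxa10, whose overexpression blocks myeloid differentiation, was at 0.298 and 0.362 CPM in young KD, 0.614 and 0.305 CPM in young KO, 0.323 and 0.249 CPM in sick KD and 0.634 and 0.791 CPM in old KO mice. Both old KO mice lay above all 6 other mice, but the difference from sick KD did not pass the threshold (log2 fold change 1.32, 95% interval 0.30 to 2.35, edgeR adjusted p = 0.0769, Benjamini-Hochberg). With 7 and 8 counts in the sick KD mice, Hoxa10 fell below the count filter of the comparison of sick KD with young KD. It passed the filter of old KO with sick KD only through the old KO mice, where it was high (18 and 31 counts).

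Hoxb4 (ENSMUSG00000038692, chromosome 11, 96318267 to 96321638, plus strand) encodes a HOX factor that expands hematopoietic stem cells when overexpressed, and it was the only HOX member whose level differed between groups by the test. It was at 10.7 and 8.93 CPM in young KD, 9.29 and 10.7 CPM in young KO, 5.61 and 6.51 CPM in sick KD and 10.7 and 11.5 CPM in old KO mice. Both sick KD mice lay below all 6 other mice, which kept between 8.93 and 11.5 CPM. Old KO mice were 1.83-fold higher than sick KD mice (95% interval 1.32 to 2.55, log2 fold change 0.87 ± 0.20 SE, edgeR adjusted p = 0.0292, Benjamini-Hochberg). Sick KD mice were 1.63-fold lower than young KD mice (log2 fold change -0.70 ± 0.20, adjusted p = 0.0491). The call was close to the threshold. Between old KO and sick KD it was lost without the first old KO mouse (adjusted p = 0.0523), the second old KO mouse (0.0831) or the 187-day sick KD mouse (0.0932). Between sick KD and young KD it was lost without any 1 of the 4 mice, with adjusted p of 0.118 and 0.0566 without the first and second sick KD mouse and 0.283 and 0.0501 without the first and second young KD mouse. The log2 fold change stayed between 0.77 and 0.98 in the former comparison and between -0.85 and -0.57 in the latter.

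Meis1 (ENSMUSG00000020160, chromosome 11, 18879817 to 19018985, minus strand) encodes the TALE partner that makes Hoxa9-driven leukemia rapid, and it is also used by megakaryocytes. It was at 23.6 and 24.3 CPM in young KD, 23.2 and 20.2 CPM in young KO, 26.7 and 27.3 CPM in sick KD and 24.4 and 29.2 CPM in old KO mice. The sick KD mice lay between the 2 old KO mice and above all 4 young mice. The log2 fold change of old KO over sick KD was -0.0084 (95% interval -0.34 to 0.33, edgeR adjusted p = 0.972, Benjamini-Hochberg), and that of sick KD over young KD was 0.17 (-0.11 to 0.44, adjusted p = 0.331). Meis1 shares 896 exon bases with an antisense gene, Gm16140, that had at most 5 counts in a mouse.

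Pbx2 (ENSMUSG00000034673, chromosome 17, 34591266 to 34597400, plus strand) encodes a broadly expressed PBX cofactor and showed the clearest difference among the 8 genes. It was at 52.5 and 57.5 CPM in young KD, 55.4 and 55.4 CPM in young KO, 27.8 and 33.2 CPM in sick KD and 54.4 and 53.4 CPM in old KO mice. The 6 mice outside the sick KD group lay within 52.5 to 57.5 CPM, and both sick KD mice lay far below them. Old KO mice were 1.77-fold higher than sick KD mice (95% interval 1.43 to 2.19, log2 fold change 0.82 ± 0.13 SE, edgeR adjusted p = 0.01003, Benjamini-Hochberg). Sick KD mice were 1.81-fold lower than young KD mice (log2 fold change -0.86 ± 0.13, adjusted p = 0.0114). Each call held with any 1 mouse left out, where the highest adjusted p was 0.0268 and 0.0216.

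Pbx2 shares 227 exon bases, 6.24% of its exon length, with Gpsm3 on the same strand. Gpsm3, named here after its values were seen, is a regulator of G protein signalling in leukocytes and was also lower in sick KD mice, at 30.6 and 39.1 CPM against 49.0 to 54.2 CPM in the other 6 mice. Its log2 fold change was 0.62 for old KO over sick KD (edgeR adjusted p = 0.0299, Benjamini-Hochberg) and -0.52 for sick KD over young KD (adjusted p = 0.0493). The part of reads from the shared stretch in the Pbx2 result was not tested.

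Pbx3 (ENSMUSG00000038718, chromosome 2, 34171457 to 34373142, minus strand) encodes the PBX protein that works with HOXA9 and MEIS1 in leukemia cells. It was at 10.8 and 12.2 CPM in young KD, 11.1 and 14.8 CPM in young KO, 15.3 and 16.3 CPM in sick KD and 14.0 and 13.5 CPM in old KO mice. Both sick KD mice lay above all 6 other mice, by a small margin over 1 young KO mouse. Neither comparison passed the threshold, with a log2 fold change of 0.44 (95% interval 0.093 to 0.79, edgeR adjusted p = 0.0755, Benjamini-Hochberg) for sick KD over young KD and -0.20 (-0.57 to 0.18, adjusted p = 0.414) for old KO over sick KD.

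The ratio of members within a mouse gives the same contrast without the library total. Per kb of exon, Pbx2 stood at 3.06 and 3.43 times the level of Pbx3 in the sick KD mice and at 6.28 to 8.36 times in the other 6 mice. Hoxa9 stood at 0.850 and 0.935 times the level of Hoxb4 in the sick KD mice and at 0.439 to 0.568 times in the others. In contrast, the ratio of Hoxa9 to Meis1 ran from 0.735 to 0.983 and that of Hoxa9 to Hoxa7 from 0.652 to 0.974 over all mice, and for both ratios at least 1 sick KD mouse lay among the others or beyond the opposite end. These ratios were chosen after the levels were seen and were not tested. A ratio does not remove trends with GC or length, and the longest transcripts of Pbx2 and Pbx3 hold 55.6% and 38.8% GC. With such trends removed, the log2 fold change of Pbx3 in old KO over sick KD was 0.083 rather than -0.20.

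Over the 8 genes, the comparison of old KO with sick KD asked how BM of diseased KD mice differs from that of KO mice without disease. Pbx2 and Hoxb4 were higher in old KO mice and 0 members were lower, that is 2 of 8, while 9.93% of the 14470 genes tested were higher and 8.22% were lower. The median log2 fold change was 0.39 over the members and -0.0050 over all genes. The member median includes Hoxa10 (1.32), which passed the count filter there only through the old KO mice. Its counts were 18 and 31 in old KO and 8 and 7 in sick KD mice. Without Hoxa10 the middle member is Hoxa9 at 0.17, so the member median is no sign of a shared shift. In sick KD against young KD mice, 2 of 7 tested members were lower and 0 were higher, while 11.4% of 14656 genes were lower and 9.45% were higher. Here the median was 0.17 over the members and 0.013 over all genes. Both comparisons use the same 2 sick KD libraries, so the lower Pbx2 and Hoxb4 of these mice is counted in each and the comparisons are not independent of one another.

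Among young mice, which were healthy in both genotypes, 0 of 8 members differed between KO and KD, and 0.0404% of all tested genes (6 of 14839) did. The members' log2 fold changes ran from -0.49 in Hoxa5 to 0.51 in Hoxa10, with 0 unadjusted edgeR p under 0.05, and DESeq2 called 0 as well. Intervals were narrow for Pbx2 (-0.20 to 0.21), Meis1 (-0.39 to 0.11) and Hoxa9 (-0.22 to 0.41) and wide for Hoxa10 (-0.61 to 1.63). Within the KO genotype, 0 of 8 members differed between old and young mice, again with 0 unadjusted p under 0.05 and 0 DESeq2 calls, where 0.929% of 14847 genes passed. The largest values there were 0.71 for Hoxa5 (-0.015 to 1.43) and 0.61 for Hoxa10 (-0.45 to 1.67), while Pbx2 was at -0.042 (-0.24 to 0.15) and Hoxb4 at 0.15 (-0.23 to 0.52).

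Whether the difference of old KO from sick KD mice departed from that of young KO from young KD mice was tested by an interaction term fitted on all 8 mice. Only the later KD mice were sick, so this term mixes age, disease and genotype. Pbx2 alone passed, with an interaction of 0.81 ± 0.15 SE on the log2 scale (edgeR adjusted p = 0.0251, Benjamini-Hochberg), 1 of 8 members where 4.32% of 15102 genes passed upward and 3.11% downward. This call was lost without the first old KO mouse (adjusted p = 0.0755), the first or second young KO mouse (0.0880 and 0.0787) and the first or second young KD mouse (0.0709 and 0.0620), and it held without either sick KD mouse or the second old KO mouse. Hoxb4 had an interaction of similar size, 0.84 ± 0.23, that did not pass (adjusted p = 0.0651). It passed under DESeq2 (0.0418), without a count filter (0.0385) and with GC and length trends removed (0.0491).

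**Figure D3:**
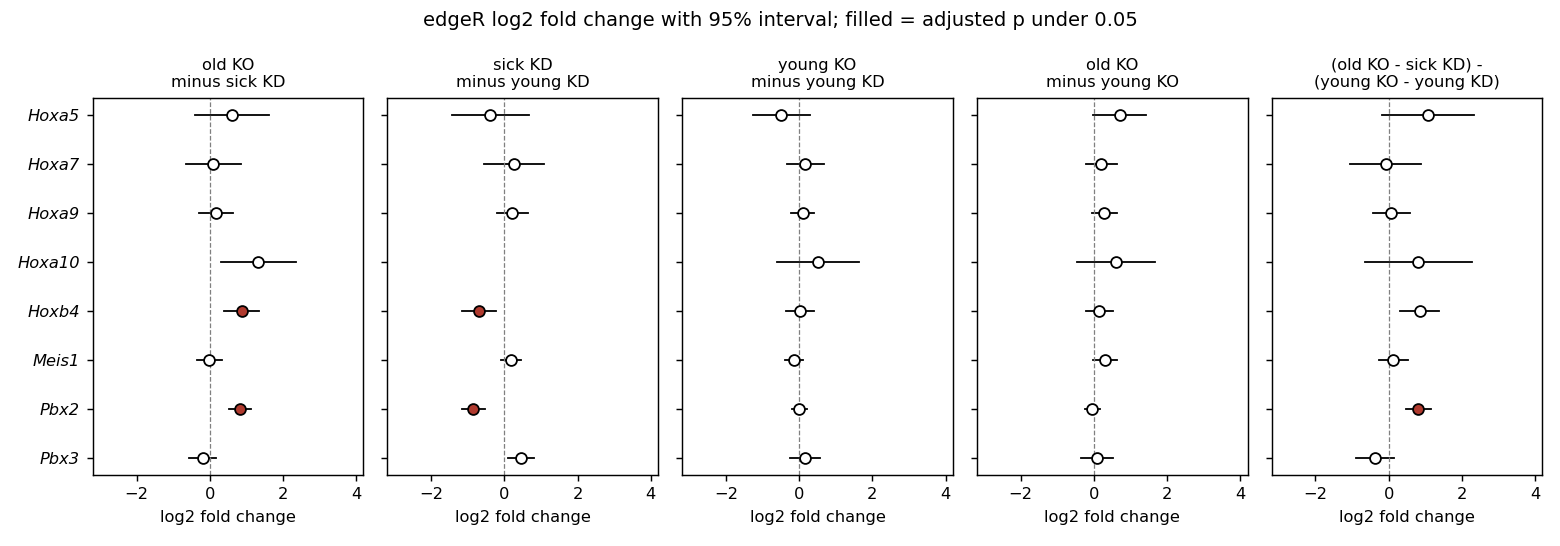
Log2 fold change of the 8 genes in the 5 comparisons (edgeR quasi-likelihood; horizontal lines are 95% intervals, filled points have an adjusted p under 0.05, and the right panel is the interaction). Filled points are Hoxb4 and Pbx2 in both comparisons with sick KD, and Pbx2 in the interaction.

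The remaining tested genes of the Hox clusters changed in none of the comparisons. Hoxb3, next to Hoxb4, had 22 to 66 counts per mouse and a log2 fold change of 0.56 for old KO over sick KD (edgeR adjusted p = 0.292, Benjamini-Hochberg) and -0.53 for sick KD over young KD (adjusted p = 0.279). Hoxa4, with 4 to 19 counts, had 1.14 for old KO over sick KD (adjusted p = 0.154). It was at 0.162 and 0.249 CPM in sick KD mice and passed that count filter only through the old KO mice, where it was higher (0.493 and 0.434 CPM). Hoxa3, Hoxa6 and Hoxb2 had at most 25 counts in a mouse, and their log2 fold changes lay between -0.50 and 0.94. The 0.94 was that of Hoxb2 for old KO over young KO, where this gene too passed the filter only through the old KO mice.

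In the TALE list of 11 genes, 9 were tested. Pbx2 and Meis3 (2 genes) were higher in old KO than in sick KD and 0 were lower, with a median of 0.10. Meis3, a relative of Meis1, was at 1.44 and 0.970 CPM in old KO mice and at 0.178 to 0.523 CPM in the other 6 mice, from 5 to 41 counts per mouse. The sick KD mice were at 0.404 and 0.178 CPM. Meis3 passed the count filter of old KO with sick KD only through the old KO mice, where it was high. Its log2 fold change was 2.05 ± 0.49 SE (edgeR adjusted p = 0.0325, Benjamini-Hochberg), and the call was lost without the first old KO mouse or either sick KD mouse (adjusted p 0.0610 to 0.118) and under DESeq2 (0.0610). In sick KD over young KD, Pbx2 was lower and 0 were higher, with a median of -0.070. Pbx4, Pknox1, Tgif1 and Tgif2 passed in none of the comparisons, and Meis2 and Pknox2 had 17 and 12 counts in all mice together and were not tested.

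Counts of list genes that passed are to be read against the shares of all tested genes, 9.93% higher and 8.22% lower in old KO over sick KD and 9.45% higher and 11.4% lower in sick KD over young KD. MLL complexes keep Hox genes active by methylating histone H3 at lysine K4. All 8 genes of that list were tested, and 2 were higher and 1 lower in old KO over sick KD (median 0.27). Kmt2a, which encodes the MLL1 methyltransferase itself, was at 119 and 117 CPM in sick KD mice and at 66.2 to 92.5 CPM in the other 6 mice. The log2 fold change of Kmt2a was -0.74 ± 0.11 SE for old KO over sick KD (edgeR adjusted p = 0.00778, Benjamini-Hochberg) and 0.39 ± 0.10 for sick KD over young KD (adjusted p = 0.0412). Psip1, which encodes LEDGF, the chromatin tether of the MLL1 and menin proteins, moved the other way. It was at 66.0 and 56.9 CPM in sick KD mice and at 99.8 to 115 CPM in the others, with 0.74 ± 0.12 (adjusted p = 0.0108) and -0.80 ± 0.12 (adjusted p = 0.0118) in the same order. Wdr5, a core subunit shared by these complexes, was 0.45 higher in old KO than in sick KD (adjusted p = 0.0455). In sick KD over young KD, 1 gene was higher and 1 lower, with a median of -0.35. The Kmt2a call against young KD was lost without the 187-day sick KD mouse or either young KD mouse (0.0571 to 0.328) and in a joint fit of all 8 mice (0.0548), and the Wdr5 call was lost without the 187-day sick KD mouse or either old KO mouse (0.0927 to 0.231).

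The DOT1L complex methylates histone H3 at lysine K79 on active genes and sustains Hoxa9 and Meis1 expression in leukemia with MLL fusions. The list joins genes of the DOT1L complex with those of the elongation complex, and all 9 were tested. In old KO over sick KD, 1 was higher and 1 lower (median 0.14). In sick KD over young KD, 1 was higher and 3 were lower (median -0.15). Dot1l, the methyltransferase, was at 59.5 and 63.9 CPM in sick KD mice and at 31.4 to 39.8 CPM in the other 6 mice, with no overlap. Its log2 fold change was -0.85 ± 0.13 SE for old KO over sick KD (edgeR adjusted p = 0.00903, Benjamini-Hochberg) and 0.64 ± 0.11 for sick KD over young KD (adjusted p = 0.0136), the latter lost without the first young KD mouse (0.0728). Mllt3, which encodes the AF9 subunit, was lower, at 13.7 and 13.5 CPM in sick KD mice and 17.3 to 21.6 CPM in the others. Its values of 0.58 (adjusted p = 0.0385) and -0.60 (adjusted p = 0.0272) were lost without any 1 mouse in the former comparison (0.0726 to 0.157) and without the 187-day sick KD mouse or either young KD mouse in the latter (0.0502 to 0.218). Aff1 (AF4) and Ccnt1 (cyclin T1) were also lower in sick KD than in young KD, by log2 values of -0.55 each (adjusted p 0.0167 and 0.0322), and both calls were lost without the first young KD mouse (0.122 and 0.216). The Aff1 call was also lost without the second young KD mouse (0.0520) and the Ccnt1 call without the 78-day sick KD mouse (0.0642).

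Polycomb complexes silence Hox genes. Of 16 genes, all tested, 1 was higher and 0 lower in old KO over sick KD (median 0.12), and 0 were higher and 3 lower in sick KD over young KD (median -0.15). Cbx2, a chromodomain subunit of Polycomb repressive complex PRC1, was at 3.997 and 7.43 CPM in sick KD mice and at 11.4 to 17.2 CPM in the other 6. Its log2 fold change was 1.13 ± 0.31 SE for old KO over sick KD (edgeR adjusted p = 0.0461, Benjamini-Hochberg) and -1.33 ± 0.34 for sick KD over young KD (adjusted p = 0.0380). Cbx7, another subunit of this kind, changed by -0.82 (adjusted p = 0.0161) and Eed, a core subunit of PRC2, by -0.43 (adjusted p = 0.0334) in sick KD over young KD. The Cbx7 call held with any 1 mouse left out. The Cbx2 calls were lost without the 187-day sick KD mouse (0.0960 and 0.0803) and without the second old KO mouse (0.0622) or the first young KD mouse (0.0791), and the Eed call was lost without either young KD mouse (0.254 and 0.0886).

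Genes known as targets of HOXA9 and MEIS1 moved in both directions. In sick KD over young KD, 4 of 15 were higher and 5 lower, with a median of 0.079. In old KO over sick KD, 3 were higher and 3 lower, with a median of 0.097. Trib2, a pseudokinase that promotes degradation of C/EBPα and a leukemia gene in its own right, was at 24.0 and 23.1 CPM in young KD, 16.9 and 19.5 CPM in young KO, 1.86 and 2.92 CPM in sick KD and 8.88 CPM in both old KO mice. The groups did not overlap, and the level of sick KD was the lowest.

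The log2 fold change of Trib2 was -3.30 ± 0.23 SE for sick KD over young KD (edgeR adjusted p = 0.00262, Benjamini-Hochberg), 1.89 ± 0.28 for old KO over sick KD (adjusted p = 0.00838) and -1.04 ± 0.14 for old KO over young KO (adjusted p = 0.0420). The last of these was the only gene of the pathway lists called between old and young KO mice, and that call was lost without any 1 mouse (0.0644 to 0.253) and in the joint fit (0.0607). Sox4, a transcription factor of progenitors and B cell precursors, was lower in sick KD than in young KD by -2.16 ± 0.27 (adjusted p = 0.00695). Erg, an ETS factor of stem cells and megakaryocytes, was lower by -0.90 ± 0.17 (adjusted p = 0.0186), a call lost without the first young KD mouse (0.0746). Id2, an inhibitor of basic helix-loop-helix factors, was higher, at 178 and 146 CPM in sick KD mice and 46.0 to 58.0 CPM in the other 6. Its log2 fold change was 1.501 ± 0.13 for sick KD over young KD (adjusted p = 0.00365) and -1.66 ± 0.14 for old KO over sick KD (adjusted p = 0.00346). Cdk6, a cell cycle kinase, and Igf1r, a growth factor receptor, were higher in sick KD than in young KD by 0.80 (adjusted p = 0.00814) and 0.84 (adjusted p = 0.0116). They were lower in old KO than in sick KD by -0.65 (adjusted p = 0.0145) and -0.63 (adjusted p = 0.0141), where the call was lost without the first old KO mouse for Cdk6 (0.0932) and without the second for Igf1r (0.0645).

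**Figure D4:**
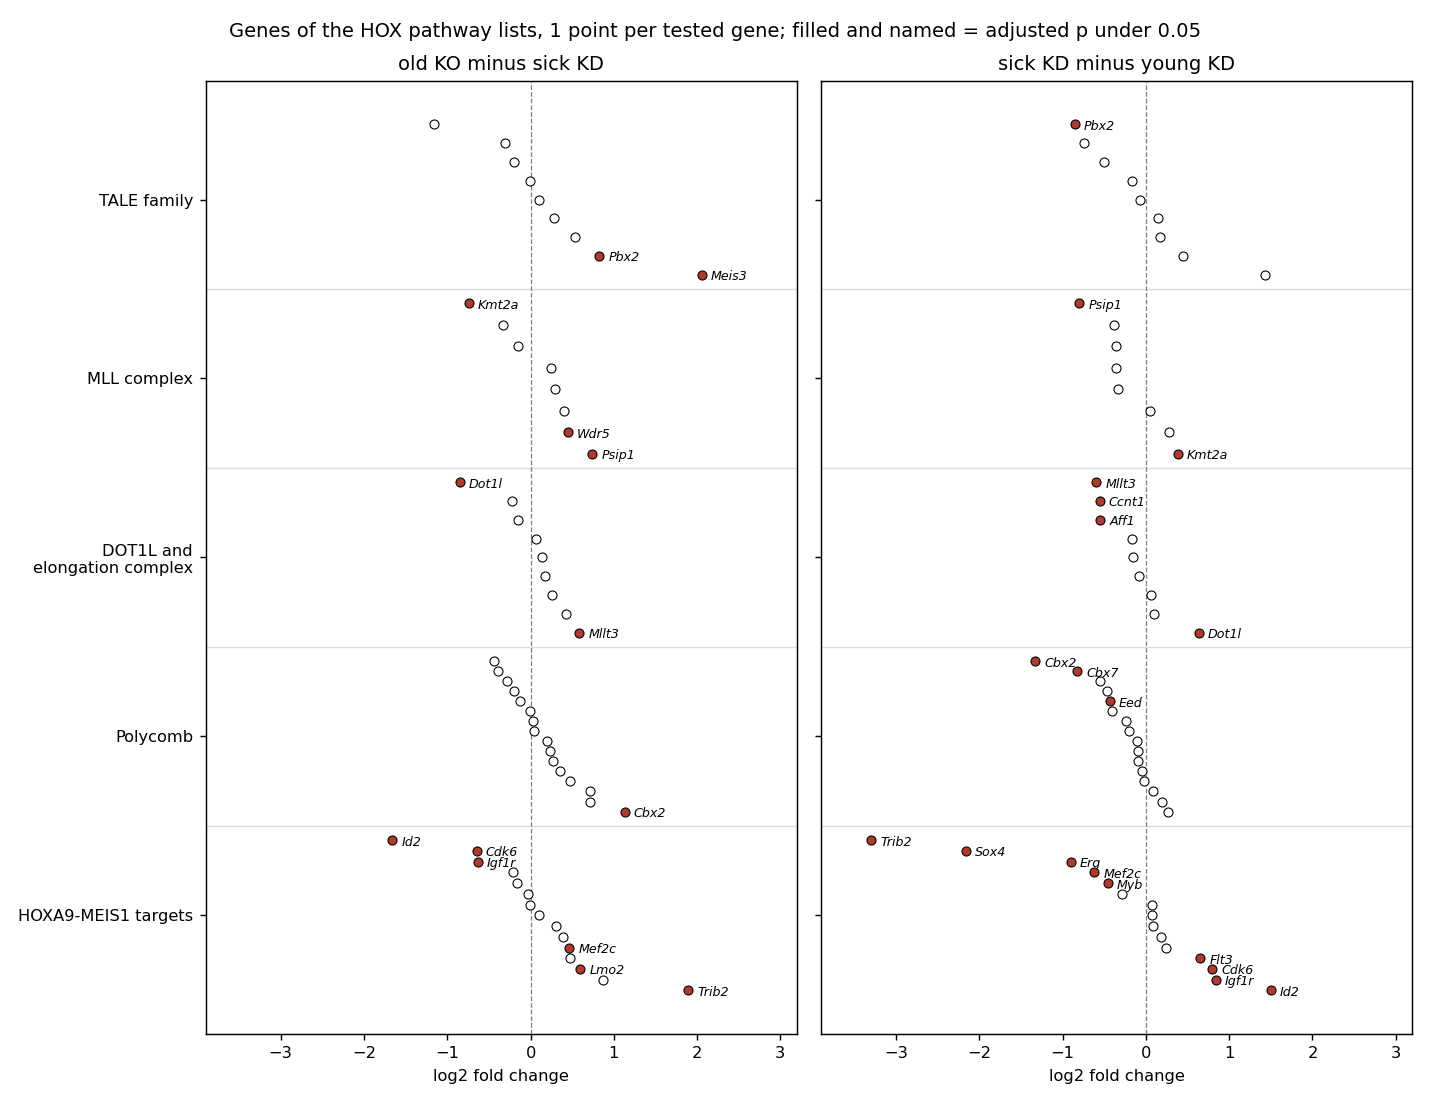
Log2 fold change (edgeR) of every tested gene of 5 pathway lists, for old KO minus sick KD (left) and sick KD minus young KD (right); filled and named points have an adjusted p under 0.05. Trib2 (-3.30) and Sox4 (-2.16) lie farthest to the left on the right panel, and Dot1l and Kmt2a lie on the opposite side from Psip1 and Mllt3 in both.

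Over all pathway lists, 58 genes outside the 8 members were tested between old KO and sick KD, of which 8 were higher and 5 lower. The higher genes include Meis3, which passed the count filter only through the old KO mice. Of these 13 genes, 5 (Dot1l, Id2, Kmt2a, Psip1 and Trib2) stayed past the threshold with any 1 mouse left out. Between sick KD and young KD, 6 of 56 were higher and 12 lower, and 8 of these 18 stayed: Cbx7, Cdk6, Id2, Igf1r, Mef2c, Psip1, Sox4 and Trib2. In the interaction, where 4.32% of all genes passed upward and 3.11% downward, 4 of 59 were higher and 3 lower. Trib2 (2.26, edgeR adjusted p = 0.00886, Benjamini-Hochberg), Mllt3 (0.71, 0.0449), Psip1 (0.69, 0.0383) and Mef2c (0.50, 0.0382) were the former, and Id2 (-1.37, 0.00800), Cdk6 (-0.76, 0.0218) and Dot1l (-0.70, 0.0347) the latter. With any 1 mouse left out, Trib2 and Id2 stayed. Mllt3 (0.0664 to 0.188) and Psip1 (0.0523 to 0.153) were lost without any 1 of the 8 mice, Mef2c (0.0659 to 0.131) and Dot1l (0.0549 to 0.134) without any but the 78-day sick KD mouse, and Cdk6 (0.0617 to 0.0970) without the first old KO, the first young KD or either young KO mouse. Among young mice 0 were called by edgeR and 0 by DESeq2.

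Whole BM mixes many cell types, so fewer cells of a type and less RNA per cell cannot be told apart in these data. Several marker lists also differed in the sick KD group. The summed level of 8 B cell markers was 35.9 and 87.1 CPM in sick KD mice, 120 and 192 CPM in old KO mice and 593 to 940 CPM in the 4 young mice. All 8 were lower in sick KD than in young KD and 7 were lower in old KO than in young KO mice. Trib2 and Sox4 of the HOXA9 and MEIS1 target list had the same order, lowest in sick KD, next in old KO and highest in young mice. Sox4 was at 13.7 and 22.2 CPM in sick KD, 27.3 and 38.2 CPM in old KO and 56.5 to 94.1 CPM in the 4 young mice.

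Erythroid markers (8 genes) summed to 430 and 537 CPM in sick KD mice and 857 to 2145 CPM in the other 6, and all 8 were lower in sick KD by both comparisons. Stromal markers (6 genes) summed to 29.4 and 28.3 CPM in sick KD and 104 to 208 CPM elsewhere. The sum of neutrophil markers (12 genes) was highest in sick KD, at 9229 and 7387 CPM against 4083 to 5403 CPM, but the list did not move as one: 3 were higher and 1 lower in sick KD than in young KD, and 1 was higher and 4 lower in old KO than in sick KD. Monocyte markers (8 genes) summed to 10113 and 9682 CPM in sick KD mice and 6899 to 9219 CPM in the others, with 2 higher and 1 lower in sick KD than in young KD and 1 higher and 0 lower in old KO than in sick KD. T cell markers (5 genes) summed to 6.54 to 10.5 CPM in all mice but the old KO mice, which were at 19.4 and 22.8 CPM. No marker of these lists was at 0 in both mice of any group. The part of these shifts in the lower Pbx2 and Hoxb4, or in the changes of Trib2, Sox4 and the other list genes, was not tested.

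Stem and progenitor markers (12 genes), which mark the cells in which Hoxa9, Meis1 and Hoxb4 are chiefly expressed, summed to 589 and 642 CPM in sick KD, 558 and 607 CPM in old KO, 449 and 516 CPM in young KD and 554 and 465 CPM in young KO mice. Sick KD and old KO mice overlapped. Both sick KD mice lay above all 4 young mice, which rested on Cdk6: without it, a choice made after seeing the data, the sums were 436 and 479 CPM in sick KD and 362 to 461 CPM in young mice. Of these markers, 2 were higher and 0 lower in sick KD than in young KD, and 0 were higher and 1 lower in old KO than in sick KD. Cdk6 and Flt3, the 2 that were higher, are also in the list of HOXA9 and MEIS1 targets. The Flt3 call (log2 fold change 0.65, edgeR adjusted p = 0.0399, Benjamini-Hochberg) was lost without either sick KD mouse (0.0967 and 0.0552), without the first young KD mouse (0.237) and in a joint fit of all 8 mice (0.0840). Megakaryocyte markers (8 genes) varied within each group, from 115 to 464 CPM over all mice, and 0 of 8 passed in any comparison.

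**Figure D5:**
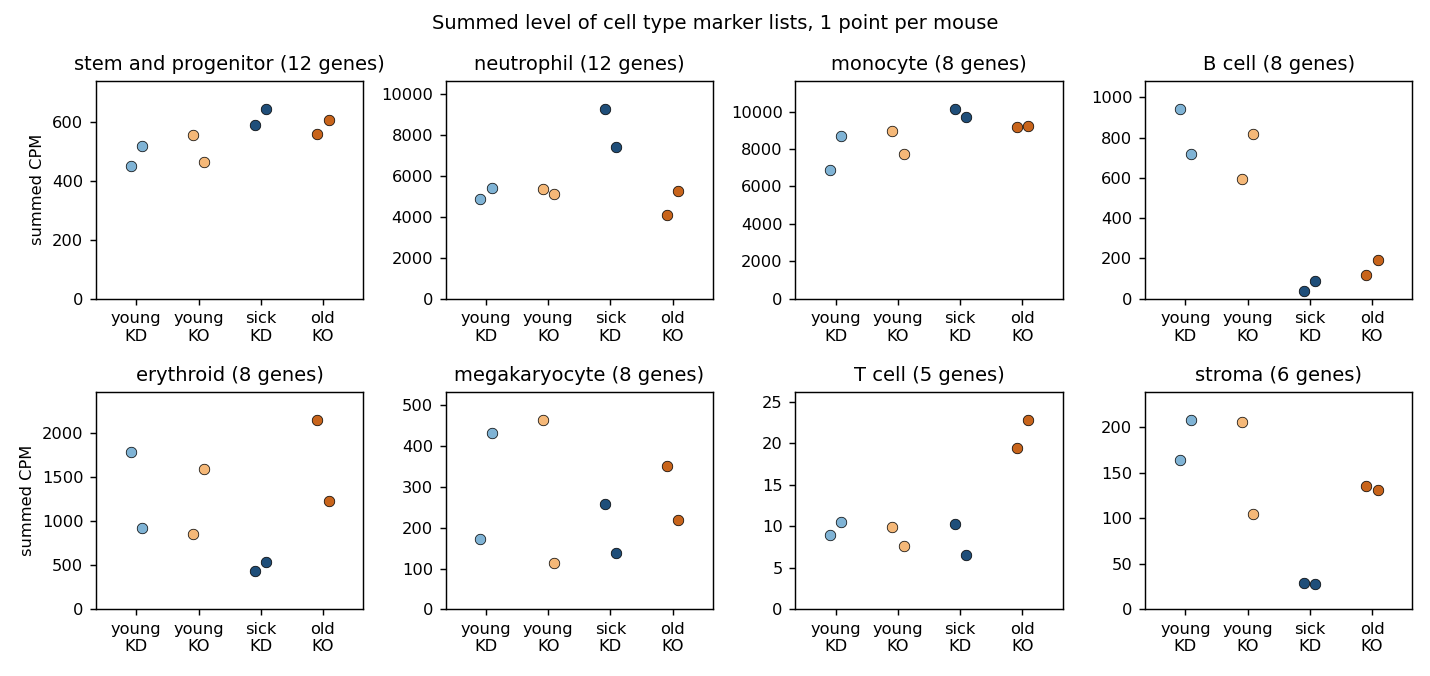
Summed TMM-normalized CPM of the marker lists, each on its own linear axis from 0, with 1 point per mouse. B cell, erythroid and stromal sums are lowest in the 2 sick KD mice and neutrophil sums highest, while stem and progenitor sums of sick KD (589 and 642) and old KO (558 and 607) overlap.

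Genes with a profile like that of Hoxa9 or Meis1 were ranked by the root mean square difference of log2(CPM + 1), centred per gene, over the 8 mice, among 11126 protein-coding genes. Closest to Hoxa9 were Hk3, Calhm2, Lmo1, Cst3 and Itm2c, with differences from 0.0302 to 0.0575. Closest to Meis1 were Ldlrad3, Klk8, Tcea3, Zfp521 and Gm15448, with differences from 0.0655 to 0.0756. The range over mice was 0.43 for Hoxa9 and 0.51 for Meis1 on this log2 scale, and 35.9% and 46.9% of the genes have no larger range. Neither range is large among the genes, so closeness to either profile is weak evidence of likeness. How many genes lie near each profile was not counted. None of the genes named as closest is a Hox or TALE gene.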

How the data were processed

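BM RNA of 8 mice was sequenced with stranded poly(A) libraries. Per the labels and the methods of the study, the authors aligned reads with TopHat 2.0.10 to mm10 and counted them with HTSeq. The deposited values are raw counts for 41214 Ensembl genes per mouse, without normalization or pooling. The annotation release and strand setting are not given in the sources used here. Symbols, coordinates and exon lengths came from GENCODE M21 on GRCm38, the same build, where 40254 genes matched.

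The test was that of edgeR 4.0.16 run under R 4.3.3 (TMM, filterByExpr, quasi-likelihood test, Benjamini-Hochberg adjustment over all tested genes, threshold 0.05). Each comparison was fitted on its own 4 mice and the interaction on all 8. The SE is the absolute log2 fold change over the square root of F. Libraries held 26642067 to 42679114 counts. Groups hold only 2 mice, which limits precision more than depth does, and replicate mice differed by more than counting noise (chi-square per degree of freedom 21.8 to 35.9). Scripts were tested on simulated data.

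The members and lists were chosen with earlier results of these data known. Named were all members, every tested Hox or TALE gene, up to 4 called genes per pathway list and comparison with the largest change, and the 5 genes closest to Hoxa9 and to Meis1 (mean CPM of at least 1, pseudocount 1, without immunoglobulin and T-cell receptor genes or those on sex chromosomes). Not every gene that this rule selects is reported here. Gfi1, Gpsm3, Gm16140 and Hoxaas3 are outside this rule and were named with their values known. Alternatives were DESeq2 1.42.0, its size factors in edgeR, no count filter, at least 10 counts in every mouse, leaving out mitochondrial genes and the 50 genes with most counts, removal of GC and length trends (mgcv 1.9.3), a joint fit, plain library totals for levels, and leaving out each mouse. A stem and progenitor sum without Cdk6 was added after seeing the data.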

Additional observations from a re-analysis of the deposited data

Results flagged for a closer look

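The difference between KO and KD mice in Pbx2 was not the same in the young groups as between old KO and sick KD mice. Old KO mice were 0.82 above sick KD mice on the log2 scale, whereas young KO mice were 0.0068 above young KD mice, and the interaction of 0.81 passed in edgeR (adjusted p = 0.0251, Benjamini-Hochberg over 15102 genes). Both sick KD mice (27.8 and 33.2 CPM) lay below all 6 other mice (52.5 to 57.5 CPM). Groups of 2 mice are too small for a search for single outlying mice.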

How the results depend on the processing

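No paired analysis was possible because each mouse has a number of its own in the labels, with none in common across groups. Of 263 member tests under other settings than a left-out mouse, 252 kept their direction and their side of the threshold, 0 lost a call, 3 gained one and 8 turned direction. The gains were the Hoxb4 interaction, so that 2 members passed there under DESeq2, without a count filter and with GC and length trends removed. The turned values were all uncalled: Meis1 in old KO over sick KD (0.00056 under DESeq2, 0.0068 without a count filter, 0.0016 with 10 counts in every mouse, 0.18 with trends removed) and, with trends removed, Pbx3 in that comparison (0.083), Hoxb4 (-0.0022) and Pbx2 (-0.018) in young KO over young KD and the Hoxa9 interaction (-0.035). In 64 comparisons of a group level of a member under another scaling with the main one, the level moved by at most 6.90%.

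With 1 mouse left out, 157 of 188 member tests kept direction and side, 12 lost a call and 19 turned direction; the lone mouse of a group is then assumed to vary like the other groups. Members called ranged from 1 to 2 (higher in old KO over sick KD), fell from 2 to 1 without any 1 mouse (lower in sick KD over young KD) and ranged from 0 to 1 (interaction). The values that turned ranged as follows. In young KO over young KD they were -0.055 to 0.45 for Hoxa7, -0.11 to 0.89 for Hoxa10, -0.099 to 0.16 for Hoxb4, -0.054 to 0.074 for Pbx2 and -0.058 to 0.36 for Pbx3. In old KO over sick KD they were -0.29 to 0.63 for Hoxa7 and -0.15 to 0.13 for Meis1, in sick KD over young KD -1.04 to 0.046 for Hoxa5 and -0.27 to 0.66 for Hoxa7, and in old KO over young KO -0.12 to 0.31 for Pbx3. In the interaction they were -0.47 to 0.45 for Hoxa7, -0.095 to 0.24 for Hoxa9 and -0.013 to 0.25 for Meis1.

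Calls among pathway genes outside the members moved more. Between old KO and sick KD, 8 higher and 5 lower became 15 and 8 without a count filter, 15 and 8 with trends removed and 14 and 9 with all mice fitted together. In old KO over young KO, 0 higher and 1 lower became 1 and 3 under DESeq2, 2 and 4 without a count filter and 0 lower in the joint fit. In the interaction, 4 higher and 3 lower became 8 higher under DESeq2 and 10 and 6 without a count filter. With 1 mouse left out, the counts ranged from 2 to 9 higher in old KO over sick KD, 3 to 7 higher and 5 to 15 lower in sick KD over young KD, 0 lower in old KO over young KO, and 1 to 5 higher and 1 to 4 lower in the interaction. The cause was not tested.

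Over all genes, calls in young KO over young KD went from 3 higher and 3 lower to 16 and 13 under DESeq2 and to 55 and 64 without a count filter, with 1 higher in the joint fit. For old KO over sick KD, 1437 higher and 1189 lower became 2476 and 1849 without a count filter, 2204 and 1996 in the joint fit and 2187 higher with trends removed. In old KO over young KO, 48 higher and 90 lower became 168 and 214 under DESeq2, 414 and 382 without a count filter, and 21 and 28 higher with trends removed and in the joint fit. In the interaction, 653 higher and 469 lower became 1158 and 764, 1777 and 1142, and 1126 and 726 under DESeq2, without a count filter and with trends removed. With 1 mouse left out, all-gene calls ranged from 1 to 4 higher and 1 to 5 lower in young KO over young KD, 674 to 1485 and 547 to 1310 in old KO over sick KD, 455 to 1630 and 861 to 1771 in sick KD over young KD, 7 to 176 and 10 to 131 in old KO over young KO, and 53 to 879 and 51 to 735 in the interaction. Depth limits Hoxa5 and Hoxa10, which rest on 7 to 48 counts per mouse.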
